A study of Homo sapiens with 6 samples.

Results

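The genes described here encode proteins of the mitochondrial ribosome and of the machinery that imports proteins into mitochondria, as measured in SH-SY5Y cells after 4 h with or without bilirubin. The members are all probe sets whose only gene symbol in the platform annotation was MRPL, MRPS, TIMM or TOMM followed by a number. This gave 87 of the 22215 probe sets tested, standing for 67 of 11963 named genes. The mitochondrial ribosome had 64 probe sets of 51 genes, 31 of them for the large subunit (MRPL) and 20 for the small subunit (MRPS). The import machinery had 23 probe sets of 16 genes, 5 with TOMM symbols and 11 with TIMM symbols. A further 5 probe sets carried such a symbol beside that of another gene and were not counted as members; they belong to TIMM23, TOMM6, TOMM7 and a pseudogene of MRPS31.

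SH-SY5Y is an established human neuroblastoma line with neuronal traits. In 3 flasks (Bf 140 nM) the cells received medium with unconjugated bilirubin dissolved in DMSO, giving 140 nM free bilirubin, and in 3 flasks (DMSO 0.6%) they received medium with the solvent alone. Both groups were collected after 4 h, both thus carried 0.6% DMSO, and RNA of each flask was hybridised to 1 Affymetrix human GeneChip array. The labels name separate flasks and independent biological replicates of 1 cell line, so the spread between arrays is that between cultures of a single line. The comparison addresses whether an early exposure to bilirubin, the heme breakdown product that injures neurons in severe neonatal jaundice, changes transcript levels. RNA came from the cells collected from a flask, so fewer cells of a kind and less RNA per cell cannot be told apart. The paper reports that bilirubin at this dose lowered viability relative to the solvent from the first time measured. It describes its expression data as those of the surviving cells, so the groups may also differ in which cells were left.

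Mitochondria keep a small genome of their own, and the few membrane proteins it encodes, all subunits of the respiratory chain and the ATP synthase, are made on a dedicated ribosome inside the organelle. The proteins of that ribosome are encoded in the nucleus, as are nearly all other mitochondrial proteins, and reach the organelle as precursors from the cytosol. Precursors pass the outer membrane through the TOM complex and are then handed to TIM complexes of the inner membrane or to small TIM chaperones in the space between the membranes. In the nucleus, many of these genes have promoters with sites for the GABPA factor of the ETS family, for NRF1 and for YY1.

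Stretches of the promoters are shown for some of the genes whose values are described further on. They were chosen because their windows hold a motif of 7 letters before the start, so its presence in all of them is no result. Windows of the RefSeq annotation (GRCh38.p14), from 250 bases before to 50 bases after each transcription start, were matched for 60 of the 67 genes. The ETS motif CCGGAAG, searched on both strands, was found in 19 of 45 ribosome genes (42.2%) and in 7 of 15 import genes (46.7%), and in 12.2% of all 27305 genes with a window. The YY1 motif AAGATGGCG was found in 8 of 45 ribosome genes (17.8%) and in 1 of 15 import genes (6.67%), against 2.14% of all genes; its first 3 letters can be the last 3 of the ETS motif. The NRF1 motif (GCGCA, any base, then GCGC) was found in 4 of 45 ribosome genes and 3 of 15 import genes, against 6.98% of all genes. A composite motif of CEBP and ATF factors, TGATGCAAT, was found in 0 of 45 ribosome genes and 0 of 15 import genes, against 0.293% of all genes. These matches describe the letters of the windows and are not measurements of binding. The genes with a window were neither limited to those on the array nor matched to the members by level or promoter type. The stretches run 5′ to 3′ in the direction of transcription and lie before the start, with the motifs in capitals (CCGGAAG or its other strand CTTCCGG, and in TOMM20 also GCGCAGGCGC). They lie at chr1:235128838-235128958 (TOMM20, minus strand), chr3:100401090-100401213 (TOMM70, minus strand), chr11:57530755-57530829 (TIMM10, minus strand), chr3:131502977-131503023 (MRPL3, minus strand), chr1:1407294-1407357 (MRPL20, minus strand) and chr19:38930919-38930953 (MRPS12, plus strand).
TOMM20: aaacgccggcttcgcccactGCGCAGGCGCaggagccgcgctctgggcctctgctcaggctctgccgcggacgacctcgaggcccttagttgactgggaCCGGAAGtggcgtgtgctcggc
TOMM70: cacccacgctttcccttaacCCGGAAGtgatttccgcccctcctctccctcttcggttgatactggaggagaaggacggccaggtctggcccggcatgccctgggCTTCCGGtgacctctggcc
TIMM10: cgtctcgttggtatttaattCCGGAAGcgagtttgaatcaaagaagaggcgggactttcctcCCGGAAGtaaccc
MRPL3: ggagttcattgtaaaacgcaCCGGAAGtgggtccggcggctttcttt
MRPL20: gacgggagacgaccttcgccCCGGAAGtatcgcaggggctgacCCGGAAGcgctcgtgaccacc
MRPS12: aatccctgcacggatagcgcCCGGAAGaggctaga
TOMM70, TIMM10 and MRPL20 held the ETS motif at 2 places within these stretches, and TOMM20 held it nearer to the start than the NRF1 motif.

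Levels are the deposited normalised values on a log2 scale, differences are Bf 140 nM minus DMSO 0.6% on that scale, and each gene is given by its brightest probe set. The scale is compressed for dim probe sets, so folds of dim genes are understated. As brightness depends on the probes as well as on the transcript, levels of different genes are not ranked. The ribosome genes had mean levels between 7.01 (MRPL41) and 12.36 (MRPL3), with a median of 10.38. The import genes had mean levels between 8.02 (TIMM50) and 13.19 (TOMM20), with a median of 9.66. The median probe set of the array stood at 7.97. All 16 import genes and 47 of 51 ribosome genes lay above it; MRPL41, MRPS18C, MRPL52 and MRPL44 lay below.

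Array quality bears on these values. The beta-actin controls, as 3′ minus 5′ signal, give a difference that grows when labelled transcripts are shortened. It was 0.24, 0.49 and 0.89 in Bf 140 nM replicates 1, 2 and 3 and 0.10, 0.32 and 2.21 in DMSO 0.6% replicates 1, 2 and 3, so DMSO 0.6% replicate 3 stood apart. For GAPDH it was 0.20, 0.22 and 0.38 in Bf 140 nM and 0.19, 0.10 and 1.30 in DMSO 0.6%. Between the groups the exact two-sided permutation p was 0.9 for beta-actin and 1 for GAPDH, where 3 against 3 arrays cannot give less than 0.1. Of the 11 noradrenergic neuroblast markers measured, 8 lay above the median probe set, and INSM1, TH and HAND2 lay below it, at 6.26, 6.57 and 7.76. Of 12 markers of mesenchymal or Schwann-like cells, 7 lay above the median probe set too, with VIM at 13.76. These counts therefore do not assign a cell state.

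No member passed the test between the groups. In limma's test across all probe sets, 0 of 87 member probe sets passed an adjusted p of 0.10, as did 0 of all 22215 (0.00%). At an unadjusted p under 0.05 there were 0 members and 17 probe sets in all (0.0765%). That share is far below the level of 0.05 itself, so limma's p-values ran high in this unpaired fit. The reason was not tested, and the lack of calls does not show that levels were equal. The lowest unadjusted p of a member was 0.122, for MRPL28, with an adjusted p of 1.00 in limma. The 95% confidence interval excluded a 2-fold difference in both directions for all 67 genes on this scale, and a 1.5-fold difference for 41 of 51 ribosome genes and 13 of 16 import genes. Over all probe sets these shares were 97.8% and 85.7%. For the 4 genes below the median probe set a true 2-fold difference may not be excluded, because their folds are understated.

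**Figure D1:**
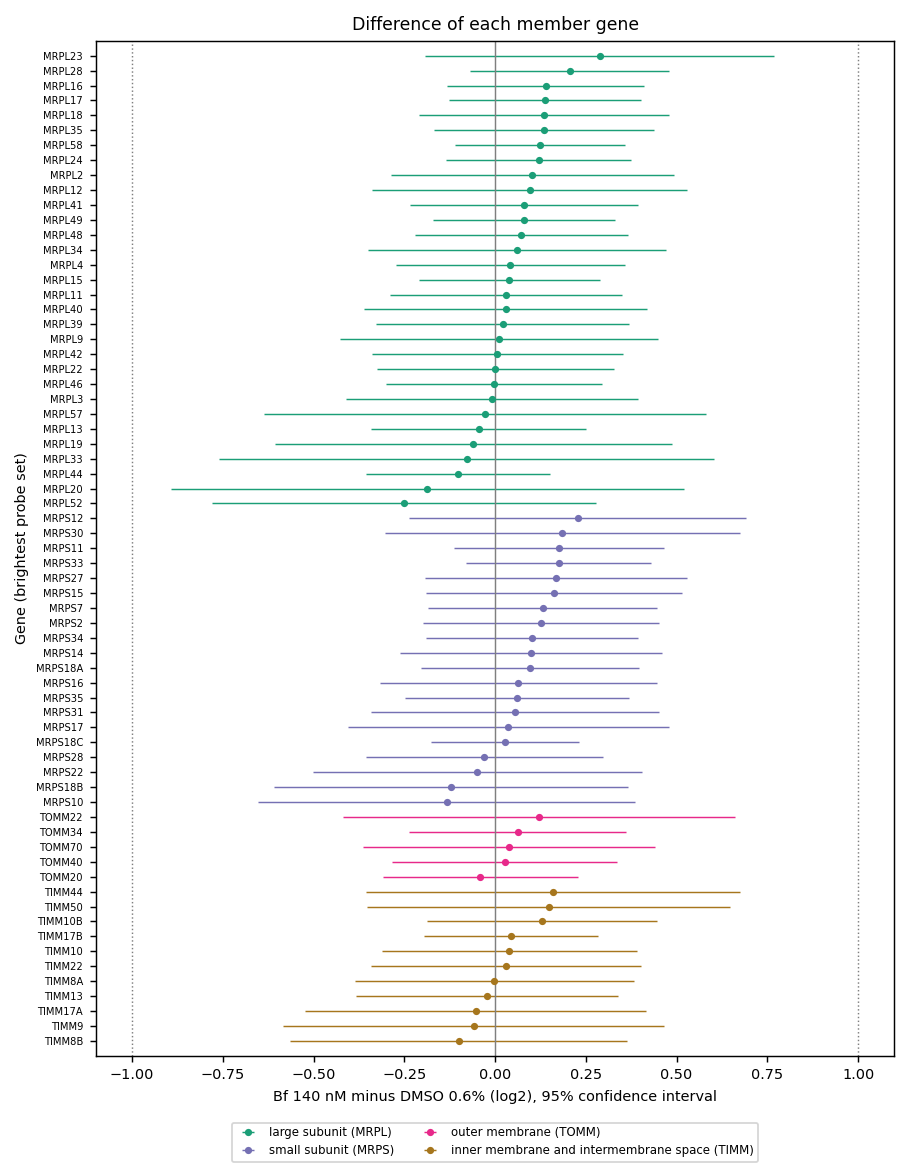
Difference between Bf 140 nM and DMSO 0.6% (log2, horizontal axis) of the 67 member genes, each by its brightest probe set, with 95% confidence intervals from limma (3 arrays per group). Colours give the large and small subunit, TOMM and TIMM genes, and dotted lines mark 2-fold differences; every interval includes 0 and none reaches a dotted line.

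Complete separation of the groups was rare among the members, as over the whole array. The values of the 3 Bf 140 nM arrays all lay above those of the 3 DMSO 0.6% arrays in 1 of 87 member probe sets, against 1.68% of all probe sets, and all lay below in 1 of 87, against 0.981%. The higher one, named here after its values were seen, was MRPL58, a peptidyl-tRNA hydrolase of the large subunit that frees stalled ribosomes. It stood at 10.68, 10.69 and 10.80 in Bf 140 nM replicates 1, 2 and 3 and at 10.64, 10.67 and 10.48 in DMSO 0.6% replicates 1, 2 and 3. The difference of 0.12 (95% CI -0.11 to 0.36) had an unadjusted p of 0.253 in limma, and the gap between the closest values of the groups was small beside it. The lower one was the dimmest of 4 probe sets of TIMM17A, at 5.68, 5.62 and 5.70 in Bf 140 nM and 5.74, 5.84 and 5.80 in DMSO 0.6%, while the other 3 probe sets of that gene overlapped between the groups.

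Among the ribosome genes, 38 of 51 had a difference above 0 (74.5%), with a median of 0.06 and a range of -0.25 to 0.29. Over all probe sets 63.2% were above 0 and the median was 0.03. Among the probe sets of like brightness described further on, 73.5% were above 0. The count above 0 was 22 of 31 for the large subunit and 16 of 20 for the small subunit, with medians of 0.04 and 0.10. The ribosome median differed between replicate numbers 1, 2 and 3 with an SD of 0.21. After quantile normalization the ribosome count was 30 of 51 and the median 0.01.

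Of the large subunit genes, MRPL28 had the lowest unadjusted p, MRPL23 the highest difference and MRPL52 the lowest difference, and the interval of each included 0. MRPL28 stood at 10.05, 9.87 and 10.07 in Bf 140 nM replicates 1, 2 and 3 and at 9.93, 9.82 and 9.63 in DMSO 0.6% replicates 1, 2 and 3, a difference of 0.21 (95% CI -0.07 to 0.48). Bf 140 nM replicate 2 lay among the DMSO 0.6% values. MRPL23 differed by 0.29, the most of all members (95% CI -0.19 to 0.77), with 11.04, 10.90 and 11.01 in Bf 140 nM and 10.87, 11.01 and 10.21 in DMSO 0.6%. Its DMSO 0.6% replicate 3 stood far below the other 5 arrays, which overlapped, and without that array the difference was 0.04. MRPL52, one of the dim genes, had the lowest difference, -0.25 (95% CI -0.78 to 0.28), with 7.08, 7.28 and 7.36 in Bf 140 nM and 7.15, 7.30 and 8.03 in DMSO 0.6%. Here DMSO 0.6% replicate 3 stood above all others, and the difference without it was 0.02.

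MRPL20, a conserved protein bound to the ribosomal RNA of the large subunit, varied widely within both groups. It stood at 12.01, 11.71 and 12.60 in Bf 140 nM and at 11.89, 12.13 and 12.86 in DMSO 0.6%, and replicate 3 was the highest array of each group. The difference was -0.19 (95% CI -0.89 to 0.52). MRPL3, another conserved large subunit protein, had 12.41, 12.04 and 12.61 in Bf 140 nM and 12.19, 12.32 and 12.58 in DMSO 0.6%, a difference of -0.01. Its means were 12.36 ± 0.29 in Bf 140 nM and 12.36 ± 0.20 in DMSO 0.6% (SD, n = 3 each). MRPL12, which also binds the mitochondrial RNA polymerase, had 10.87 ± 0.14 in Bf 140 nM and 10.77 ± 0.36 in DMSO 0.6%. MRPL11, of the stalk region where translation factors dock, had 9.97 ± 0.23 in Bf 140 nM and 9.93 ± 0.09 in DMSO 0.6%. For MRPL19 the values were 8.61 ± 0.41 in Bf 140 nM and 8.67 ± 0.30 in DMSO 0.6%, and for MRPL44 they were 7.54 ± 0.15 and 7.64 ± 0.01.

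In the small subunit the decoding-centre protein MRPS12 had the highest difference, 0.23 (95% CI -0.24 to 0.69). It stood at 10.45, 10.44 and 10.61 in Bf 140 nM replicates 1, 2 and 3 and at 10.51, 10.50 and 9.80 in DMSO 0.6% replicates 1, 2 and 3. The first 2 arrays of each group lay together, and the difference without DMSO 0.6% replicate 3 was -0.01. MRPS33 stood at 11.72, 11.58 and 11.86 in Bf 140 nM and at 11.51, 11.62 and 11.51 in DMSO 0.6%, a difference of 0.18 (95% CI -0.08 to 0.43) with an unadjusted p of 0.149. Only Bf 140 nM replicate 2 fell inside the DMSO 0.6% range, and without it the difference was 0.25, with an unadjusted p of 0.0482 and an adjusted p of 0.998 in limma. MRPS11 differed by 0.18 and MRPS15 by 0.16, the second with 10.20 ± 0.03 in Bf 140 nM and 10.03 ± 0.29 in DMSO 0.6%. Without DMSO 0.6% replicate 2 the MRPS15 difference was 0.31, with an unadjusted p of 0.0466 and an adjusted p of 1 in limma. MRPS10 had the lowest difference of the small subunit, -0.13, with 10.85 ± 0.32 in Bf 140 nM and 10.98 ± 0.35 in DMSO 0.6%. MRPS28 differed by -0.03 and MRPS18B by -0.12.

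Of the import genes, 10 of 16 had a difference above 0 (62.5%, against 63.2% of all probe sets), with a median of 0.03 and a range of -0.10 to 0.16. After quantile normalization the count was 6 of 16 and the median -0.02. The ribosome median exceeded the import median by 0.03, and this difference was not tested. At the outer membrane TOMM20, the receptor that binds the presequence of most matrix precursors, stood at 13.21, 12.98 and 13.32 in Bf 140 nM replicates 1, 2 and 3 and at 13.23, 13.24 and 13.16 in DMSO 0.6% replicates 1, 2 and 3. The Bf 140 nM arrays spanned the DMSO 0.6% values on both sides, and the difference was -0.04 (95% CI -0.31 to 0.23). TOMM70, the receptor for carrier proteins delivered by chaperones, had 10.97, 10.64 and 11.21 in Bf 140 nM and 10.72, 10.87 and 11.12 in DMSO 0.6%, a difference of 0.04. TOMM40, the pore of the complex, had 9.82 ± 0.07 in Bf 140 nM and 9.80 ± 0.23 in DMSO 0.6%.

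TOMM22, the central receptor that holds the complex together, stood at 9.57, 9.14 and 9.33 in Bf 140 nM and at 9.68, 9.22 and 8.77 in DMSO 0.6%. Its difference of 0.12 (95% CI -0.42 to 0.66) was 0.56 in replicate number 3 and below 0 in the other 2, and without DMSO 0.6% replicate 3 it was -0.10. TOMM34, a cytosolic co-chaperone named for the complex, differed by 0.06, with 9.60 ± 0.03 in Bf 140 nM and 9.54 ± 0.22 in DMSO 0.6%.

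In the inner membrane TIMM17A and TIMM17B are alternative subunits of the presequence translocase, TIMM50 is its receptor and TIMM44 ties it to the import motor. TIMM17A stood at 12.09, 11.91 and 12.57 in Bf 140 nM replicates 1, 2 and 3 and at 12.01, 12.20 and 12.52 in DMSO 0.6% replicates 1, 2 and 3, a difference of -0.05. TIMM17B varied less, with 9.77 ± 0.11 in Bf 140 nM and 9.73 ± 0.06 in DMSO 0.6%. TIMM44 had 8.97, 8.95 and 8.79 in Bf 140 nM and 9.12, 8.89 and 8.22 in DMSO 0.6%. TIMM44 had the highest import difference, 0.16 (95% CI -0.36 to 0.67), but it was -0.10 without DMSO 0.6% replicate 3, the lowest array. TIMM50 behaved likewise, with 8.20, 8.26 and 7.83 in Bf 140 nM and 8.16, 8.19 and 7.49 in DMSO 0.6%, a difference of 0.15 that was -0.08 without that array. TIMM22, the channel through which carrier proteins enter the inner membrane, differed by 0.03.

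The small TIM chaperones, which escort hydrophobic precursors between the membranes, lay on both sides of 0. TIMM8B had the lowest import difference, -0.10 (95% CI -0.56 to 0.36), with 12.37, 12.39 and 12.75 in Bf 140 nM and 12.37, 12.41 and 13.02 in DMSO 0.6%. Replicate 3 was the highest array of each group, and the other 4 arrays lay within a narrow band. TIMM8A, altered in deafness-dystonia syndrome, had 8.74 ± 0.23 in each group. TIMM9 and TIMM10, which work as partners, differed by -0.06 and 0.04, and TIMM13, the partner of TIMM8A, by -0.02. TIMM10B, part of the TIM22 complex, had the lowest unadjusted p of the import genes, 0.371, with a difference of 0.13.

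**Figure D2:**
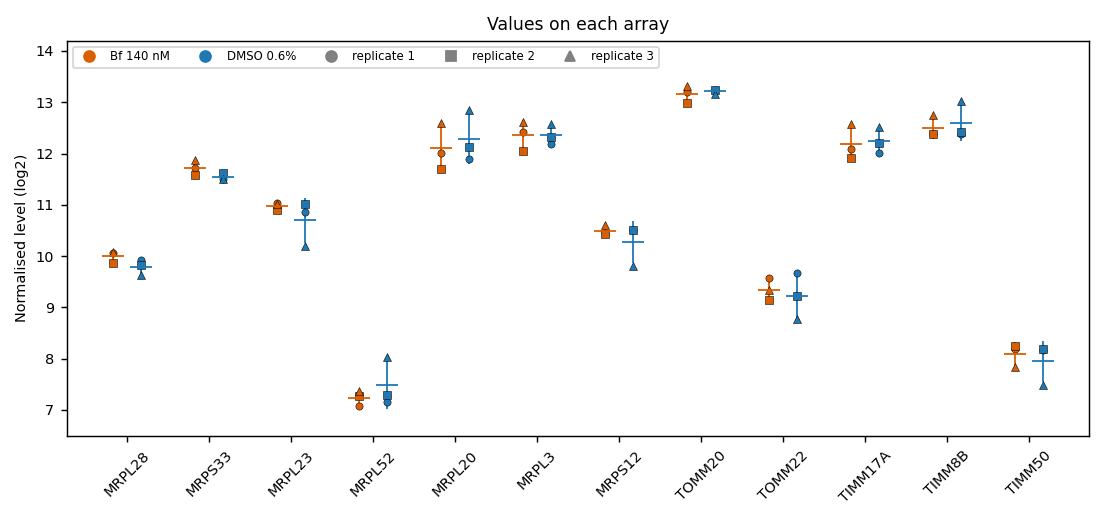
Normalised level (log2) of 12 member genes on each array, with orange for Bf 140 nM, blue for DMSO 0.6%, a marker shape for each replicate number and bars for the mean and SD of 3 arrays. The groups overlap in each of the 12 genes, and DMSO 0.6% replicate 3 (blue triangle) is the lowest array for MRPL28, MRPL23, MRPS12, TOMM22 and TIMM50 and the highest for MRPL52, MRPL20 and TIMM8B.

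The replicate numbers, which the labels share between the groups, gave opposite signs. In numbers 1, 2 and 3 the median difference of the ribosome genes was 0.12, -0.14 and 0.26, and that of the import genes was 0.03, -0.11 and 0.18. In number 2, 44 of 51 ribosome genes (86.3%) and 12 of 16 import genes (75.0%) were below 0, against 50.9% of all probe sets. Higher, lower and higher in numbers 1, 2 and 3 was the pattern of 31 of 67 genes (46.3%), against 27.3% of all probe sets. Only MRPL28, MRPL58 and TIMM50 were above 0 in all 3 numbers, and only MRPL44, MRPL52 and TIMM8B were below 0 in all 3. These are 4.48% of the 67 genes in each direction, against 8.96% of all probe sets above 0 and 4.70% below 0 in all 3 numbers.

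The same signs were found in all probe sets of like brightness, whatever their gene. The member genes had an interquartile range of mean levels between 9.74 and 10.92, and 2704 probe sets, members included, lay in that range. Their median differences in numbers 1, 2 and 3 were 0.08, -0.18 and 0.27, with 86.9% below 0 in number 2 and 55.3% in the pattern of higher, lower and higher. Their median difference between the groups was 0.06, as for the ribosome genes. Of them 73.5% were above 0, against 74.5% of the ribosome genes and 62.5% of the import genes. In the dimmest quartile of all probe sets the 3 medians were 0.01, 0.10 and -0.08, the opposite signs in numbers 2 and 3. After quantile normalization the medians were 0.04, 0.03 and 0.01 for the ribosome genes and -0.02, 0.02 and -0.02 for the import genes, with 24 of 51 and 7 of 16 below 0 in number 2.

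**Figure D3:**
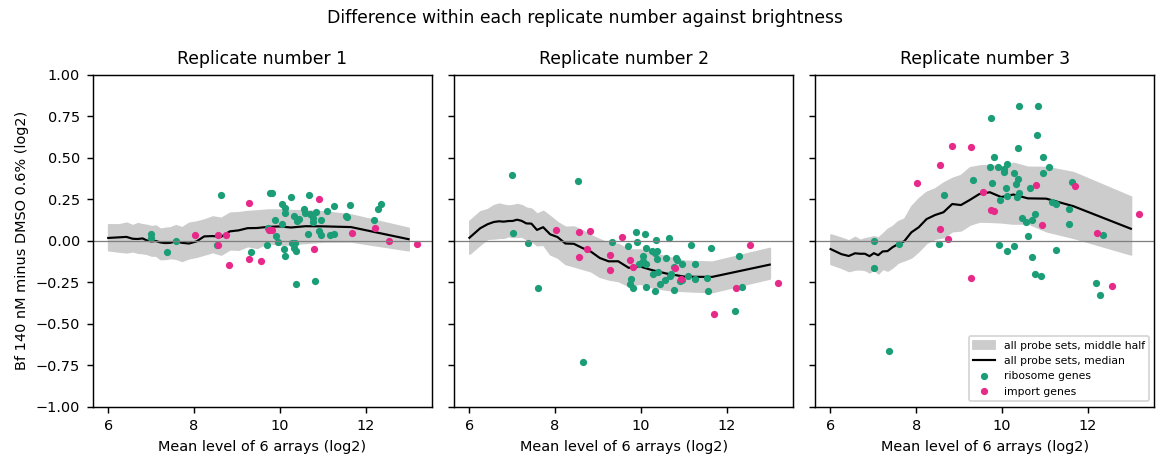
Difference between Bf 140 nM and DMSO 0.6% (log2, vertical axis) within each replicate number against the mean level of 6 arrays (log2, horizontal axis), for ribosome genes in green and import genes in pink. The black line and grey band give the median and interquartile range of all probe sets in 30 bins of brightness; the members follow the line, which lies below 0 for bright probe sets in number 2 and above 0 in number 3.

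On single arrays the medians of the members lay farthest from 0 in Bf 140 nM replicates 2 and 3. Relative to each gene's mean over the 6 arrays, the median of the ribosome genes was 0.03, -0.11 and 0.22 in Bf 140 nM replicates 1, 2 and 3 and -0.09, -0.01 and -0.07 in DMSO 0.6% replicates 1, 2 and 3. The import genes had medians of 0.04, -0.16 and 0.17 in Bf 140 nM and 0.01, -0.02 and -0.04 in DMSO 0.6%. Bf 140 nM replicate 2 was the lowest of its group in 52 of 67 genes (77.6%), against 74.2% of the probe sets of like brightness. Bf 140 nM replicate 3 was the highest of its group in 54 of 67 genes (80.6%), against 58.4%. The interquartile range of these arrays over all probe sets was 2.57, 2.25 and 2.66 in Bf 140 nM replicates 1, 2 and 3, and the 3 DMSO 0.6% arrays lay between these extremes. Bf 140 nM replicate 2 thus had the narrowest and Bf 140 nM replicate 3 the widest distribution of the 6 arrays. The part of this width in the members' values was not tested beyond the quantile normalization.

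**Figure D4:**
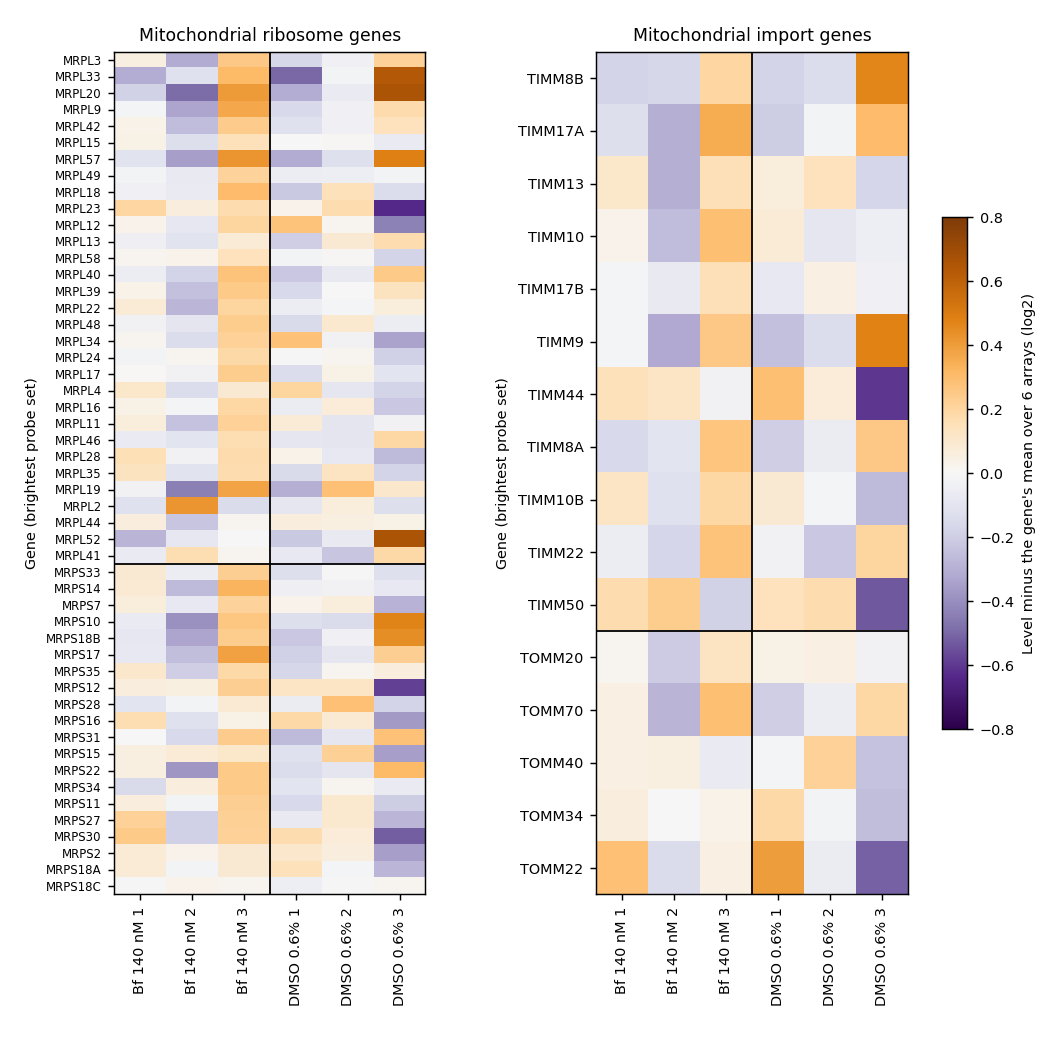
Level of each member gene minus its mean over 6 arrays (log2, colour scale from -0.8 to 0.8), with arrays in columns and genes in rows, ordered by brightness within the large and small subunit (left) and within the TIMM and TOMM genes (right). Most rows are low in Bf 140 nM replicate 2 and high in Bf 140 nM replicate 3, while DMSO 0.6% replicate 3 holds the strongest colours of both signs.

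DMSO 0.6% replicate 3, the array with the high 3′ to 5′ differences, deviated in both directions. It was above both other DMSO 0.6% arrays in 27 of 67 genes (40.3%) and below both in 31 (46.3%), against 34.1% and 46.1% of all probe sets. Among the probe sets of like brightness these shares were 29.4% and 54.8%. Probe sets of the same gene parted on it. In the 15 member genes with several probe sets, the deviation of an array from the mean of its group's other 2 arrays spanned a median of 0.17, 0.32 and 0.32 between probe sets of a gene in Bf 140 nM replicates 1, 2 and 3, and of 0.38, 0.32 and 0.71 in DMSO 0.6% replicates 1, 2 and 3. In 9 of these 15 genes the probe sets deviated in opposite directions on DMSO 0.6% replicate 3. MRPL20 had deviations of -0.22 and 0.84 there, MRPS18B of -0.52 and 0.57, TIMM17A between -0.55 and 0.42, and TOMM70 of -0.40 and 0.32. In the fit without this array, 16 of the 33 genes named by the rule changed sign, and 10 did so without Bf 140 nM replicate 2; many of these differences lay near 0, and the part of single arrays in them was not tested.

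**Figure D5:**
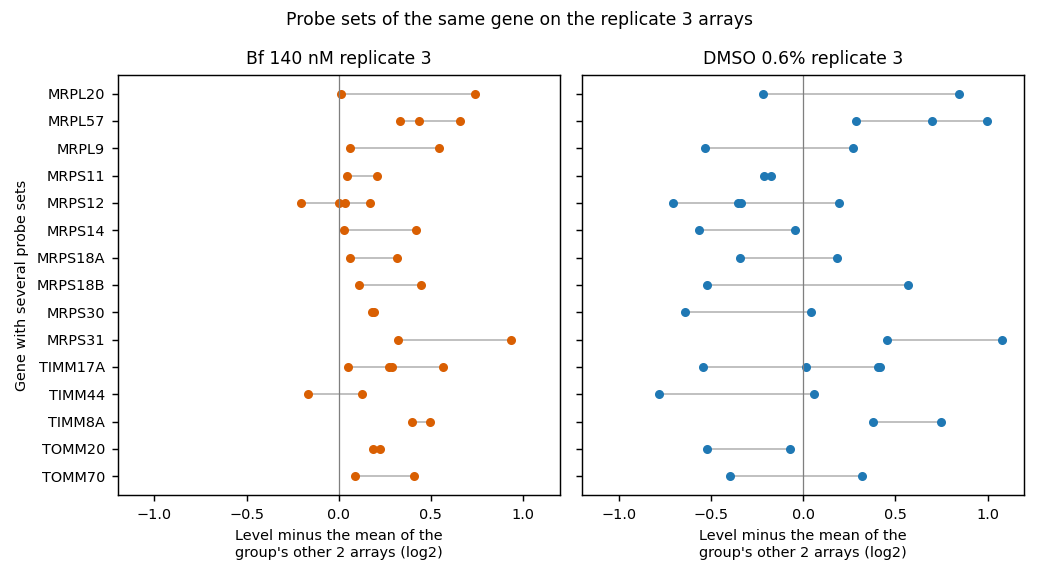
Level on the replicate 3 array minus the mean of the other 2 arrays of its group (log2) for each probe set of the 15 member genes with several probe sets, Bf 140 nM on the left and DMSO 0.6% on the right; lines join probe sets of a gene. The median span between probe sets is 0.32 in Bf 140 nM and 0.71 in DMSO 0.6%.

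The differences between groups also depended on the probe set. In 8 of the 15 genes the signs differed between probe sets, and in 0 of them the signs differed with a gap over 0.3. MRPL20 came close, with -0.19 from its brighter and 0.11 from its dimmer probe set, a gap of 0.297. The 4 probe sets of MRPS12 ran between -0.05 and 0.23. Such gaps were as wide as the highest differences of the members, up to 0.29. MRPS11, with 2 probe sets, had differences of 0.16 and 0.18. MRPS18B had -0.12 from its brighter and 0.12 from its dimmer probe set. TOMM20 likewise had -0.04 from its brighter and 0.12 from its dimmer one, and the 4 probe sets of TIMM17A ran between -0.12 and 0.09. The probe sets that TIMM23, the channel of the presequence translocase, shares with its near-identical copy TIMM23B had differences of 0.06 and 0.16, and signal of the copies cannot be told apart on the array.

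Genes that work with the members, taken from lists, passed no test either. Of mitoribosomal proteins outside the naming rule 3 were measured, with 2 above 0 and a median of 0.04; DAP3, a small subunit protein, differed by 0.04. Of 23 translation and ribosome assembly factors 15 were measured, 12 of them above 0, with a median of 0.07. TUFM, the mitochondrial elongation factor Tu, differed by 0.13 and LRPPRC, which stabilises mitochondrial messenger RNA, by 0.07. Of 24 import partners 17 were measured, 13 of them above 0, with a median of 0.06. The motor chaperone HSPA9 differed by 0.07, its nucleotide exchange factor GRPEL1 by 0.17 and the folding chaperones HSPD1 and HSPE1 by -0.05 and -0.11. None of these genes had an unadjusted p under 0.05 in limma, a level reached by only 0.0765% of all probe sets. Differences were above 0 in 63.2% of all probe sets and in 73.5% of those of like brightness to the members.

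Of 15 regulators of mitochondrial genes 14 were measured, 11 of them above 0, with a median of 0.06. None had an unadjusted p under 0.05 in limma, against 0.0765% of all probe sets. The factors of the ETS, NRF1 and YY1 motifs differed by 0.08 (GABPA), 0.01 (NRF1) and -0.15 (YY1). The coactivator PPARGC1A differed by 0.17, and TFAM, which packages mitochondrial DNA, by -0.10. The list medians in replicate numbers 1, 2 and 3 were 0.03, -0.06 and 0.23 for the translation factors and 0.05, -0.15 and 0.22 for the import partners. For the regulators they were 0.12, -0.23 and 0.09. Each of these lists had a negative median in number 2, as had the probe sets of like brightness whatever their gene (-0.18). The noradrenergic neuroblast markers had 8 of 11 differences above 0 and a median of 0.05. Markers of mesenchymal or Schwann-like cells, the other state that neuroblastoma cultures can hold, had 5 of 12 above 0 and a median of -0.02. Over all probe sets 63.2% were above 0, and the marker lists were not tested.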

How the data were processed

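The members, the lists and the rule for named genes were chosen with earlier results of these data known, so no member count is independent support for a pattern. The authors computed intensities with GCOS and normalised them by variance stabilisation (justvsn, R version 2.5.0, per the labels). This puts the deposited values on a generalised log2 scale; the sources used here do not say how probes were summarised. The deposited table held 22277 probe sets, of which 62 control probe sets served only as quality measures. The highest value, 15.2, lies above the natural logarithm of the 16-bit limit (11.1) and below its log2 (16). The study's Present-call filter was not applied. The number of arrays limits the precision.

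Of the probe sets tested, 19064 carried 1 gene symbol, 1043 several and 2108 none; current symbols by Entrez identifier changed no member. The test was limma's (version 3.58.1 in R version 4.3.3), unpaired and two-sided, with Benjamini-Hochberg adjustment over 22215 probe sets and a threshold of 0.10, near the FDR in the study's methods, which name SAM and do not say whether it was paired. The 33 named genes were taken by role, by the lowest unadjusted p (up to 4 higher and 4 lower for ribosome and import genes) and as the brightest and dimmest of each. Others are named as examples of a list or, as with MRPL58, after their values were seen. Lists were described by counts and medians, with no test.

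Both groups share replicate numbers in the labels, whose descriptions give 3, 5 and 6 for replicates 1, 2 and 3. Deviations of same-numbered arrays from their group means correlated at 0.60, 0.23 and 0.57 over probe sets. Each was above the minimum of 0.1, so the numbers were taken to pair the arrays. The main fit was still unpaired, which leaves variation shared by same-numbered arrays in its error, and the pairing entered only as an alternative. The alternatives were the replicate number as a block, each array left out, quantile normalization, median centring, a brightness filter, the beta-actin difference as a covariate, and other choices of probe set.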

Additional observations from a re-analysis of the deposited data

How the results depend on the processing

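With the replicate number as a block, 0 probe sets and 0 members passed the threshold in limma; 92 probe sets had an unadjusted p under 0.05, against 17 without the block, and 0 of them were members. The block moved no difference and changed no call, but it changed unadjusted p-values in limma. Those of MRPL23, MRPL52 and MRPS33 were 0.0975, 0.103 and 0.177 with it and 0.202, 0.303 and 0.149 without it. The intervals and p-values of single genes given above come from fits without the block. The count of all probe sets at that unadjusted level lay between 8 and 408 when 1 array was left out (408 without Bf 140 nM replicate 2), and was 62 after quantile normalization, 6 after centring the array medians, 0 among probe sets above the median brightness and 43 with the beta-actin covariate.

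The count past the threshold stayed at 0 in 22 of 22 alternative counts, taken over all probe sets and over the named genes. The named genes cannot pass where no probe set does. Of the 94 alternative medians of the ribosome genes, the import genes, their difference and the lists, 94 moved by less than 1 SD of that median over the replicate numbers, but their signs were not stable. This is a wide margin, as the SD was 0.21 for the ribosome median of 0.06 and 0.14 for the import median of 0.03. Part of these medians could not move, since the balanced block leaves differences unchanged and current symbols changed no member. The ribosome median was -0.02 without Bf 140 nM replicate 3 and otherwise between 0.01 and 0.14, and the count above 0 ran between 24 of 51 without Bf 140 nM replicate 3 and 45 of 51 without Bf 140 nM replicate 2. The import median was -0.10 without Bf 140 nM replicate 3, -0.02 after quantile normalization and otherwise between 0.00 and 0.09, with 6 of 16 above 0 without Bf 140 nM replicate 3 and 15 of 16 without Bf 140 nM replicate 2. The ribosome median exceeded the import median by 0.03 to 0.08 in each alternative, but the alternatives share most of their arrays. The main value of 0.03 had an SD of 0.07 over replicate numbers. In number 2 the order was reversed, with -0.14 for the ribosome and -0.11 for the import genes. The list medians were -0.06 without Bf 140 nM replicate 3 for the mitoribosomal proteins outside the rule and for the import partners, and -0.01 without Bf 140 nM replicate 1 for the regulators. For the mitoribosomal proteins outside the rule the median was -0.07 without probe sets marked as shared between transcripts and -0.00 where each gene was given by the median of its probe sets. The median of all probe sets, 0.03, was -0.00 after quantile normalization and after centring the array medians, a change of sign larger than its SD of 0.02 over replicate numbers.

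Of the 33 named genes, 16 changed sign without DMSO 0.6% replicate 3, 10 without Bf 140 nM replicate 2, 6 after quantile normalization and 6 with the beta-actin covariate; the cause was not tested beyond these fits. Dim probe sets limit the folds that can be read, since the deposited scale compresses them.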
